A study of Homo sapiens with 6 samples.

Results

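The genes described here are 8 genes of the SR family of splicing factors (SRSF1, SRSF2, SRSF3, SRSF4, SRSF5, SRSF6, SRSF7 and SRSF11), RSRP1, which encodes an arginine- and serine-rich protein, and CLK1, which encodes a kinase that acts on SR proteins. They make up 10 of the 25702 NCBI Gene identifiers counted in RNA sequencing of K562, an established cell line from chronic myeloid leukaemia. The cells were nucleofected with the plasmid pCMV-HA, in which a viral promoter drives a tagged insert. Cells of the control group received the plasmid without an insert (EV), and the others received it with MXD3, a transcription factor that opposes MYC, or with STIM1::MXD3, a fusion found in paediatric acute myeloid leukaemia that lacks the start of MXD3. Each of these 3 groups had 2 libraries, numbered 1 and 2, 6 in all, and per the study each library is a separate transfection. The labels give no further treatment and no batch. All 3 groups keep their own MXD3 and STIM1 genes, and the inserts were strongly overexpressed, which limits each group as a model of the patient fusion. The 10 genes were chosen by their counts-per-million (CPM) in these same libraries, by plasmid group and by library number. Their differences between groups and between numbers are therefore given as descriptions with standard errors (SE) and no p-value, and the counts of them past any threshold support nothing.

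SR proteins bind short sequences in pre-mRNA through RNA recognition motifs and recruit the spliceosome through a tail rich in arginine and serine. SRPK kinases phosphorylate this tail in the cytoplasm, which lets the proteins enter the nucleus, and CLK kinases phosphorylate it further in the nucleus, which releases SR proteins from nuclear speckles. Several SR genes, and CLK1, also make transcripts that are retained in the nucleus or degraded, through introns left in or through exons that carry a premature stop codon. A count per gene, as used here, adds all of these transcripts together and shows neither the splice form nor the protein.

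MXD3 acts with MAX on the E-box CACGTG and related sequences, so the promoter windows of the genes were read for CACGTG and for the variant CACGCG, on both strands. The windows come from RefSeq on GRCh38.p14 and run from 250 bases before to 50 bases after a gene's start. They were held for 9 of the 10 genes, SRSF2 being the other one, in 12 windows. CACGTG was in 0 of the 12 windows, against 7.26% of all 35116 windows in the reference table. CACGCG was in 4 of the 12, against 11.4% of all, and these belonged to 3 genes, SRSF1, SRSF6 and SRSF7. SRSF7 had 2 of these windows, which overlap and hold the same match, so that match was counted in both. One window of each of these 3 genes is shown because it holds the variant, and that of CLK1 is shown beside them as the window of the kinase, which holds neither sequence. They are written 5′ to 3′ on the strand of the gene, with the variant in capitals, where it reads CGCGTG because it lies on the opposite strand. They lie at chr17:58007197-58007496 (minus strand), chr20:43457646-43457945 (plus strand), chr2:38751445-38751744 (minus strand) and chr2:200864609-200864908 (minus strand) of GRCh38.p14. A match describes letters in a window, binding was not measured, and the sequences were picked for the search with the counts already known.
SRSF1 promoter: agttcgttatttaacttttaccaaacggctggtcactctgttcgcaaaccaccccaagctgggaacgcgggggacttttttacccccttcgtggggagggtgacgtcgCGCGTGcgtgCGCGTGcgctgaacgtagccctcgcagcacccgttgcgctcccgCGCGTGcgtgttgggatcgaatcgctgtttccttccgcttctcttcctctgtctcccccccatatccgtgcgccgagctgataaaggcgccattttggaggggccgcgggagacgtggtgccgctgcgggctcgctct
SRSF6 promoter: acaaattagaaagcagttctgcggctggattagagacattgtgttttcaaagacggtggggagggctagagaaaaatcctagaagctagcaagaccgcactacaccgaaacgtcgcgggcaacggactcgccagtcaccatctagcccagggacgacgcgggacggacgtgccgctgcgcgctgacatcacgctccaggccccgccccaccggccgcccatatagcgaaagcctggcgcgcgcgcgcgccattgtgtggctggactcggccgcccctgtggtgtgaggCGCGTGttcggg
SRSF7 promoter: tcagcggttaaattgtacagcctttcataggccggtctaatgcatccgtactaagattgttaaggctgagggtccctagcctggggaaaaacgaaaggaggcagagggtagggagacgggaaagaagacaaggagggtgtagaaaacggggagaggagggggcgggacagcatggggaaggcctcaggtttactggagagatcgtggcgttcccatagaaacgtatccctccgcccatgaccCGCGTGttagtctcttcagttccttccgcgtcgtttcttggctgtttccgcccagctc
CLK1 promoter: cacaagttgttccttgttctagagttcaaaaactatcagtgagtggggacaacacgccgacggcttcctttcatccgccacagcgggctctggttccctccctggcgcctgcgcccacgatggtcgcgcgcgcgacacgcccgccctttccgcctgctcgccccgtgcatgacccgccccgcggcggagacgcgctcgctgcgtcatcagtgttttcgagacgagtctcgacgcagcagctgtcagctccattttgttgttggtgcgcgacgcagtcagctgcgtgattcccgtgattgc

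Total counts per library lay between 53048343 and 63835779, and each library had between 17375 and 17836 genes with a count. MXD3 was at 9.33 and 11.7 CPM in EV, at 2524 and 2162 CPM with the MXD3 plasmid and at 1975 and 1849 CPM with the fusion plasmid. STIM1 was at 453 to 471.5 CPM in the fusion libraries and at 159.3 to 204.6 CPM in the other 4, so each library carried what its label says. All 8 K562 marker genes were present, such as GATA1 at 239.8 to 320.2 CPM and TFRC at 1105 to 1611 CPM. Of 8 markers of other cell types, EPCAM was at 77.9 to 100.5 CPM and PECAM1 at 5.14 to 6.79 CPM, while the rest were under 3 CPM, with MPO and ALB at 0 in 5 of 6 libraries each. Between plasmid groups, edgeR called 0 of the 8 K562 markers and 0 of the 6 other markers tested, and 0 of them had an unadjusted p under 0.05. The TMM scaling factor, which corrects library size for differences in composition, was 0.960 to 1.007 in the libraries numbered 1 and 1.016 to 1.031 in those numbered 2. The libraries are from bulk RNA, in which a change in the share of cells of one kind and a change of RNA per cell cannot be told apart. P-values given here measure only the spread between these libraries.

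All 10 genes passed the filter on low counts, with between 2696 (CLK1, the second fusion library) and 22521 (SRSF3, in that same library) counts per library. Divided by the length of the canonical transcript, the mean level over the 6 libraries was highest for SRSF2, at 131.1 CPM per kilobase with a range of 114 to 152.1. SRSF4 followed at 102.8 CPM per kilobase, SRSF3 at 77.5, RSRP1 at 74.2 and SRSF11 at 59.1. SRSF5 (48.0 CPM per kilobase), SRSF7 (46.2), SRSF1 (39.9), CLK1 (34.9) and SRSF6 (34.9) lay lowest. The ranges over libraries overlapped between every pair of neighbours in this order. These ranges pool all groups and numbers, and neighbours were not compared within each library, so they do not show whether a step held in every library. The 10 genes together held 1699 to 1862 CPM of a library, with the highest sums in the MXD3 libraries, at 1848 and 1862 CPM, and 1699 and 1705 CPM in EV.

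**Figure D1:**
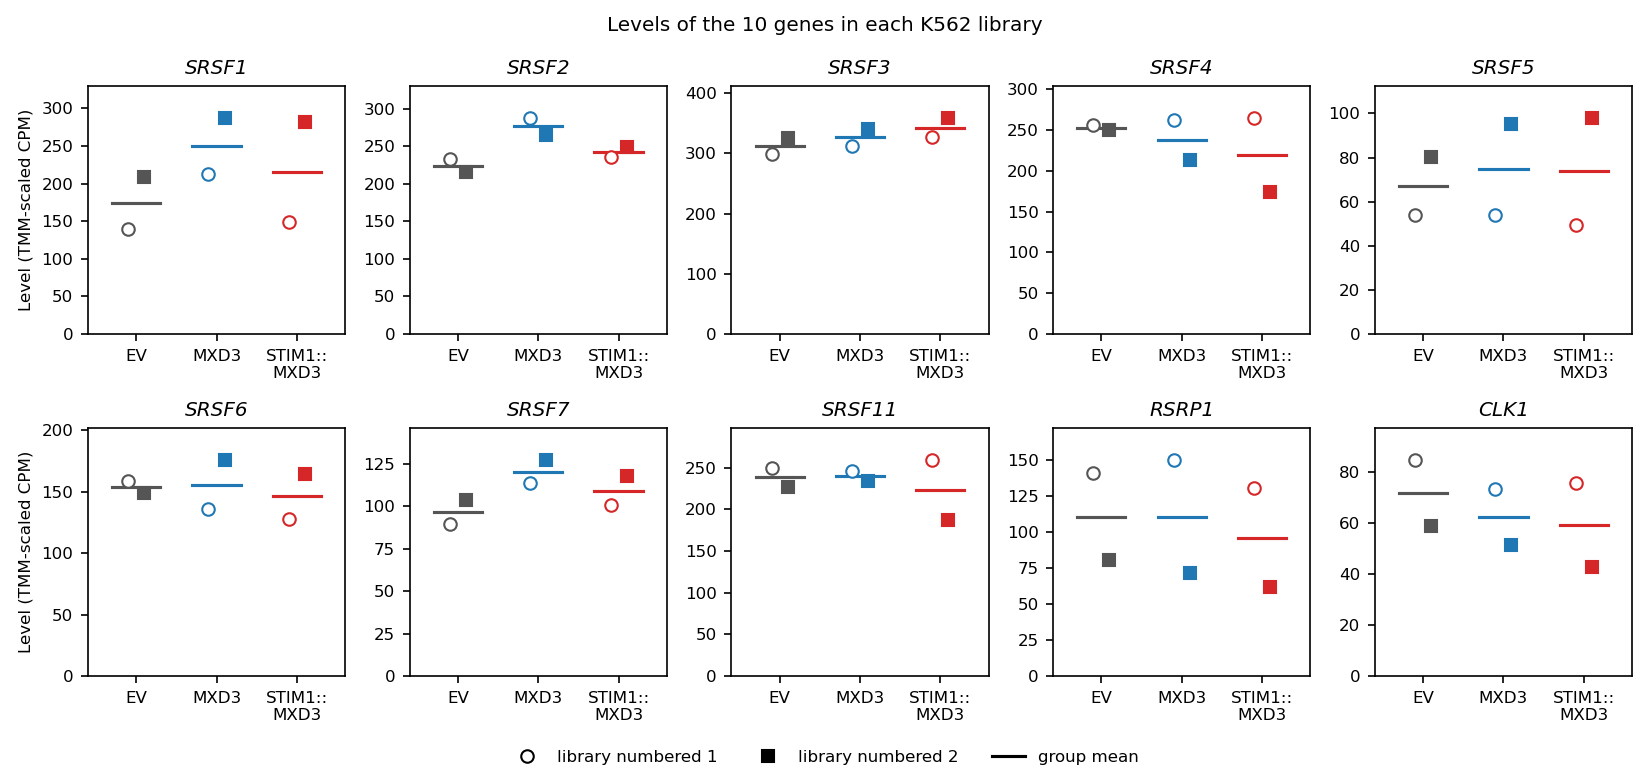
Level of each gene in TMM-scaled CPM (vertical axes, each starting at 0) in the EV, MXD3 and STIM1::MXD3 groups. Open circles are libraries numbered 1, filled squares are libraries numbered 2 and bars are means of 2 libraries. SRSF1, SRSF2 and SRSF7 lie above both EV libraries in both MXD3 libraries. For SRSF4, SRSF5, SRSF11, RSRP1 and CLK1, all libraries numbered 2 lie on the same side of all those numbered 1.

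SRSF1 encodes the SR protein first purified as an essential splicing factor, which also acts in mRNA export and translation and is a known oncogene. It (NCBI Gene 6426, GRCh37 chromosome 17 from 56078280 to 56084707 on the minus strand) was at 139.2 and 208.7 CPM in EV, at 212.6 and 286.8 CPM with MXD3, and at 149.6 and 282.5 CPM with the fusion. Both MXD3 libraries lay above both EV libraries, while the fusion libraries lay on either side of the higher EV library. Against EV, MXD3 gave a log2 fold change of 0.52 ± 0.33 (SE) and the fusion one of 0.31 ± 0.33. The fit had no replicate term, so these SE include the difference between library numbers. Without the second fusion library the fusion difference was -0.23, and without the first it was 0.70. Between libraries of the same number it was positive in both cases, at 0.10 for those numbered 1 and 0.44 for those numbered 2. The MXD3 difference stayed between 0.26 and 0.84 whichever library was left out. It was 0.61 between the libraries numbered 1 and 0.46 between those numbered 2. Within each group the library numbered 2 was higher, by 0.58, 0.43 and 0.92 on the log2 scale in EV, MXD3 and the fusion, so the libraries of 1 group lay about as far apart as the groups. A gene model on the same strand that has no row in the counts shares 31.6% of the canonical SRSF1 transcript, and another shares 15% of that of SRSF6.

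SRSF2 encodes the SR protein that is often mutated in myelodysplastic syndromes and that binds exonic enhancers rich in C or G. Its level (NCBI Gene 6427, GRCh37 chromosome 17 from 74730197 to 74733415 on the minus strand) was 232.5 and 215.2 CPM in EV, 287.2 and 265.6 CPM with MXD3, and 235.1 and 249.1 CPM with the fusion. The 3 groups did not overlap and were ordered EV, fusion, MXD3, although the closest EV and fusion libraries were 2.6 CPM apart. MXD3 differed from EV by 0.30 ± 0.12 on the log2 scale, and by 0.30 both between the libraries numbered 1 and between those numbered 2. The fusion differed from EV by 0.11 ± 0.12 and from MXD3 by -0.19 ± 0.12. These 3 differences kept their sign under every alternative. They also kept it without any single library, which adds no support, since groups that do not overlap leave little room for another sign. Exons of MFSD11 on the opposite strand share 568 bases with SRSF2, which is 30.1% of its canonical transcript, and the use of strand in counting is not given in the sources used here, so reads of the pair cannot be told apart.

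SRSF7, whose protein carries a zinc knuckle beside its RNA recognition motif and acts in splicing and mRNA export, was at 89.4 and 103.6 CPM in EV, 113.8 and 127.1 CPM with MXD3, and 100.8 and 117.7 CPM with the fusion. Both MXD3 libraries were above both EV libraries, and the fusion libraries overlapped both other groups. The log2 fold change with MXD3 was 0.32 ± 0.14, made up of 0.35 between the libraries numbered 1 and 0.29 between those numbered 2. With the fusion it was 0.18 ± 0.14. The canonical transcript of SRSF7 (NCBI Gene 6432, GRCh37 chromosome 2 from 38970741 to 38978636 on the minus strand) shared no exonic bases with another protein-coding or counted gene. Genes of other types without a row in the counts were left out of that search.

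SRSF3, the smallest SR protein, which also regulates its own transcript, had the steadiest level, with a highest value 1.20 times the lowest. It was at 299.8 and 326.2 CPM in EV, 313.1 and 341.2 CPM with MXD3, and 327.7 and 358.2 CPM with the fusion (NCBI Gene 6428, GRCh37 chromosome 6 from 36562130 to 36573377 on the plus strand). Both fusion libraries were above both EV libraries, by a margin of 1.5 CPM between the closest, with a log2 fold change of 0.13 ± 0.13. The library numbered 2 was higher by 0.12, 0.12 and 0.13 on the log2 scale in EV, MXD3 and the fusion, which is as large as the difference between the fusion and EV. The annotation names 5 pseudogenes of SRSF3, 2 of SRSF6 and 1 each of SRSF1 and SRSF2, none of them with a row of its own in the counts, so reads shared with these copies make the counts of all 4 genes uncertain.

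SRSF6, a proto-oncogene of the SR family that is amplified in some tumours, was at 158.4 and 149.0 CPM in EV, 136.0 and 175.4 CPM with MXD3, and 127.4 and 164.6 CPM with the fusion. In both plasmid groups the libraries stood on either side of the EV pair, so the groups overlapped. SRSF6 (NCBI Gene 6431, GRCh37 chromosome 20 from 42086533 to 42094686 on the plus strand) had a log2 fold change of 0.02 ± 0.18 with MXD3 and -0.07 ± 0.18 with the fusion.

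SRSF5, an SR protein long known as an insulin-responsive gene, split by library number and not by plasmid. It was at 54.2 CPM in the first and 80.2 CPM in the second EV library, at 54.0 and 95.4 CPM with MXD3, and at 49.6 and 97.8 CPM with the fusion. All 3 libraries numbered 2 were above all 3 numbered 1, by a mean of 0.79 on the log2 scale. Between plasmids the log2 fold change was 0.15 ± 0.39 with MXD3 and 0.13 ± 0.39 with the fusion, both far smaller than their SE. SRSF5 (NCBI Gene 6430) lies on GRCh37 chromosome 14 from 70193617 to 70238722, plus strand.

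SRSF4, the largest of the classical SR proteins, was at 256.0 and 249.6 CPM in EV, 262.1 and 213.4 CPM with MXD3, and 264.3 and 173.8 CPM with the fusion. The 3 libraries numbered 1 were within 8.3 CPM of each other, and the libraries numbered 2 spread downwards, most in the fusion group. The log2 fold change of the fusion against EV was -0.21 ± 0.21 and turned to 0.06 without the second fusion library. SRSF4 (NCBI Gene 6429) lies on GRCh37 chromosome 1 from 29474255 to 29508412, minus strand.

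SRSF11, an SR-related protein that contacts the polypyrimidine tract factor U2AF, showed a like arrangement at 250.2 and 227.2 CPM in EV, 245.7 and 234.4 CPM with MXD3, and 258.9 and 187.0 CPM with the fusion. The second fusion library was the lowest of the 6. The fusion differed from EV by -0.10 ± 0.17 on the log2 scale and by 0.11 without that library, and MXD3 differed from EV by 0.01 ± 0.17. SRSF11 (NCBI Gene 9295) lies on GRCh37 chromosome 1 from 70671365 to 70718735, plus strand.

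RSRP1, whose protein is little characterised, had the widest range, with a highest library 2.42 times the lowest. It was at 140.5 and 80.6 CPM in EV, at 149.6 and 71.5 CPM with MXD3, and at 130.2 and 61.9 CPM with the fusion. In each group the library numbered 2 was lower, with a log2 difference from the library numbered 1 of -0.80 in EV, -1.07 with MXD3 and -1.07 with the fusion. The EV and MXD3 means were equal at 110.6 CPM, a log2 fold change of 0.00 ± 0.47, and the fusion mean was 96.1 CPM, a log2 fold change of -0.20 ± 0.47. RSRP1 (NCBI Gene 57035) lies on GRCh37 chromosome 1 from 25568740 to 25664704, minus strand.

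CLK1 phosphorylates SR proteins and controls the splicing of its own transcript, which is partly held in the nucleus with introns left in. It was at 84.6 and 58.7 CPM in EV, 73.5 and 51.4 CPM with MXD3, and 75.6 and 42.9 CPM with the fusion (NCBI Gene 1195, GRCh37 chromosome 2 from 201717732 to 201729414 on the minus strand). The libraries numbered 2 were below all those numbered 1, with log2 differences of -0.53 in EV, -0.51 with MXD3 and -0.82 with the fusion. The plasmid groups overlapped, with log2 fold changes against EV of -0.20 ± 0.31 for MXD3 and -0.27 ± 0.31 for the fusion. Leaving out single libraries moved the latter between -0.74, without the first fusion library, and 0.07, without the second.

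The mean log2 difference between library numbers was larger in size than any fitted difference between plasmids for 7 of the 10 genes, with SRSF2, SRSF3 and SRSF7 as the exceptions. The share of all genes tested for which this holds was not counted, so it cannot be read as a trait of these genes. All 3 libraries numbered 2 were above all 3 numbered 1 for 1 of the 10 genes (SRSF5), where the share of all genes tested was 18%. They were below for 4 of the 10 (SRSF4, SRSF11, RSRP1 and CLK1), where the share of all genes tested was 20.6%. Such splits were thus frequent across the transcriptome, and the genes were chosen with them known. Among the other CLK kinases, the log2 difference of the library numbered 2 from that numbered 1 was -0.28, -0.49 and -0.88 for CLK3 in EV, MXD3 and the fusion. It was -0.26, -0.56 and -0.98 for CLK4, and 0.02, 0.35 and 0.44 for CLK2. For the SRPK kinases it was -0.27, -0.28 and -0.50 (SRPK2) and 0.24, 0.08 and 0.05 (SRPK1). Over the 10 SR protein kinases and importers, 3 were above and 6 below in all libraries numbered 2. Of the 28 hnRNP proteins, RNA-binding proteins that often oppose SR proteins at splice sites, 14 were above and 6 below.

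Markers of the K562 line moved with the library number as well. Of the 8 markers, 0 were above and 5 were below in all libraries numbered 2, and their summed level was 2967 to 3425 CPM in the libraries numbered 1 and 2332 to 2566 CPM in those numbered 2. HBG1, a fetal globin, was at 364.4 to 392.2 CPM in the former and 205.1 to 244.4 CPM in the latter, and KLF1, an erythroid transcription factor, at 323.8 to 335.3 CPM and 205.8 to 260.3 CPM. The summed level of the 8 markers of other cell types was 96.6 to 111.1 CPM in the libraries numbered 1 and 88.3 to 90.9 CPM in those numbered 2, nearly all of it EPCAM. The scaling factor was also higher in every library numbered 2. The part of these measures in the values of the 10 genes was not tested, and the labels do not say what the numbers stand for beyond replicates.

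**Figure D2:**
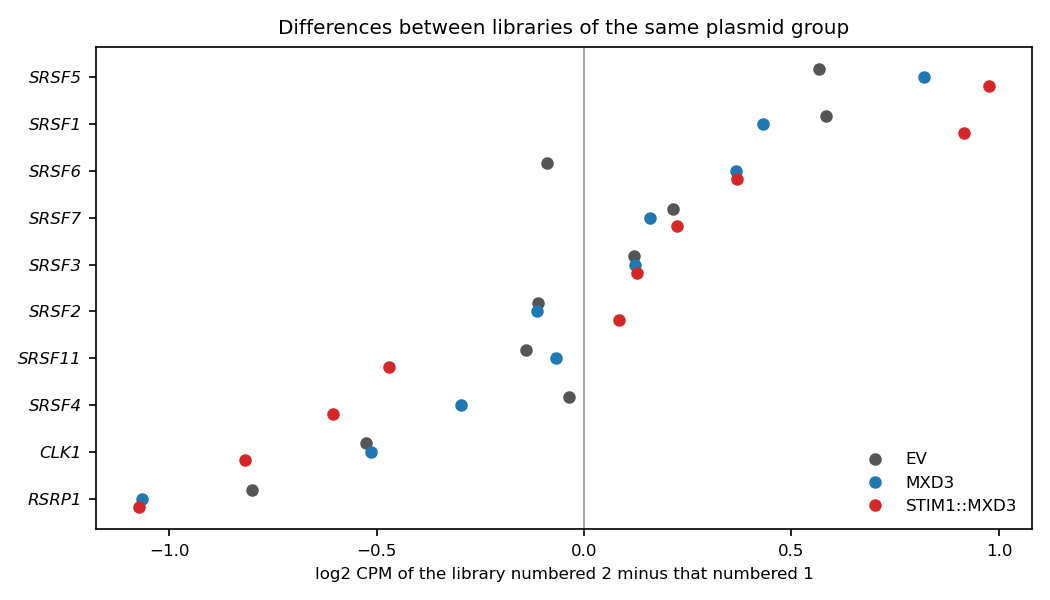
Difference in log2 CPM between the library numbered 2 and the library numbered 1 of each plasmid group (horizontal axis), for the 10 genes ordered by the mean difference. Each point is 1 group. RSRP1, CLK1, SRSF4 and SRSF11 are below 0 in all 3 groups. SRSF5, SRSF1, SRSF7 and SRSF3 are above 0 in all 3, while SRSF2 and SRSF6 lie on both sides.

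Across the plasmid comparisons, the quasi-likelihood test of edgeR, fitted without a replicate term and adjusted over the 15431 genes tested, called 0 of the 10 genes in any of the 3 comparisons. It called 0.00648% of all genes for MXD3 against EV, 0.00648% for the fusion against EV and 0% for the fusion against MXD3. At an unadjusted p under 0.05 it marked 1 of the 10 for MXD3 against EV (SRSF2), where 1.86% of all genes were marked, 0 for the fusion against EV, where 0.953% were, and 0 for the fusion against MXD3, where 1.01% were. DESeq2 without a replicate term also called 0 of the 10 in each comparison.

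Between MXD3 and EV, 8 of the 10 genes had a positive log2 fold change (5 to 8 under the alternatives), with a median of 0.04 beside 0.00 over all genes tested. The share of all genes with a positive sign was not counted. Both MXD3 libraries were above both EV libraries for 3 genes (SRSF1, SRSF2 and SRSF7), at 16.2% of all genes, and both were below for 0, at 14.8% of all genes. Group means were 1.44, 1.24 and 1.25 times those of EV for SRSF1, SRSF2 and SRSF7. The median was 0.17 without the first MXD3 library.

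Between the fusion and EV, 5 genes were positive and 5 negative, with a median of 0.02 beside 0.01 over all genes, which became -0.01 with GC and length offsets. Both fusion libraries were above both EV libraries for SRSF2 and SRSF3, 2 of 10 against 12% of all genes, and both were below for 0, at 10% of all genes. The median lay between -0.03 and 0.13 when single libraries were left out, with either sign.

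Between the fusion and MXD3, 9 of the 10 genes were negative, also under each alternative that kept all libraries (up to 4 of the 10 were positive with 1 library left out), and SRSF3 was positive at 0.07 ± 0.13. Those alternatives refit the same libraries, and the share of all genes with a negative sign was not counted. Besides SRSF3, SRSF4 (0.01), SRSF11 (0.08) and CLK1 (0.04) were positive between the libraries numbered 1. SRSF5 (0.04) was positive between those numbered 2. The median fitted difference was -0.11 beside 0.01 over all genes, and every one of the 10 fitted differences lay between -0.21 and 0.07. Both fusion libraries were below both MXD3 libraries for SRSF2, 1 of 10 against 10.2% of all genes, and above for 0, at 10.9%. The 3 comparisons share their libraries in pairs, so their values for a gene are not independent of each other.

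**Figure D3:**
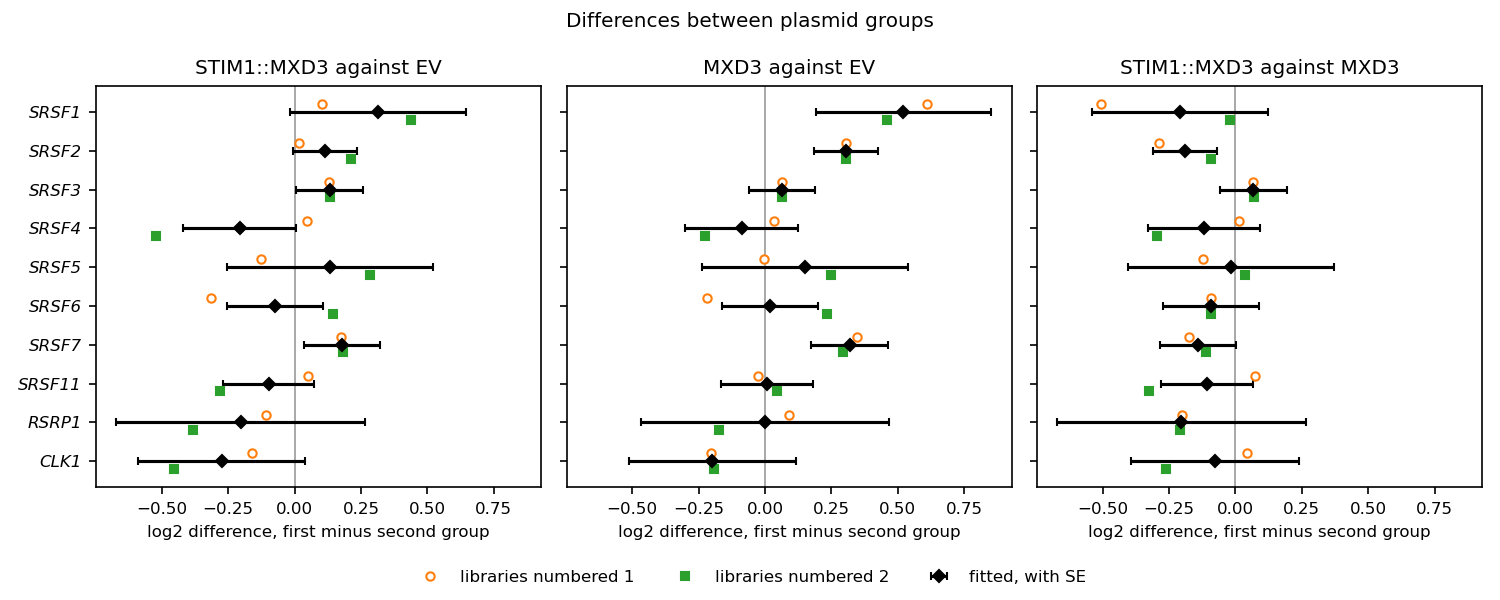
Log2 difference between plasmid groups for the 10 genes in the 3 comparisons (horizontal axes, first minus second group named above each panel). Diamonds are fitted log2 fold changes with SE bars, open circles the difference between libraries numbered 1 and squares that between libraries numbered 2. SRSF2 and SRSF7 with MXD3 against EV have all 3 marks close together near 0.3. The SE bars of SRSF4, SRSF5, SRSF6, SRSF11, RSRP1 and CLK1 span 0 in every panel.

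The other genes of the splicing machinery were read from 6 lists with 130 entries, of which 128 genes were tested. Neither edgeR nor DESeq2 without a replicate term called any of them in any comparison. At an unadjusted p under 0.05 edgeR marked 1 for the fusion against EV, 0 for MXD3 against EV and 1 for the fusion against MXD3. Both marks were DHX16, a helicase of the activated spliceosome with a mean of 0.898 CPM, named after its values were seen, with log2 fold changes of 3.76 ± 1.28 and 4.01 ± 1.29. That level is near the floor and the SE are large, so these values are not read as a change in expression. How its reads were assigned was not examined. Adjusted p from edgeR was 1.00 for DHX16 in both, and for the other genes of the lists named in the following 3 paragraphs it was between 0.9995 and 1.00.

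Of the other SR proteins, 5 of 6 were tested and SRSF12 was not, because of low counts. Against EV, 4 of the 5 were positive with MXD3 (median 0.24) and 4 with the fusion (median 0.14). TRA2B, which acts with SR proteins on exonic enhancers, was at 97.4 and 137.4 CPM in EV, 140.4 and 152.4 CPM with MXD3 and 106.0 and 153.1 CPM with the fusion, with a log2 fold change of 0.32 ± 0.23 for MXD3. TRA2A was between 27.8 and 39.5 CPM and SRSF9 between 78.5 and 102.7 CPM. SRSF10 was at 23.9 CPM in the first fusion library and between 7.19 and 10.1 CPM in the other 5, and its log2 fold change of 1.04 ± 0.48 for the fusion against EV came with a second fusion library, at 7.27 CPM, between those of EV.

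Of the SR protein kinases and importers, 5 of 10 were positive with MXD3 and 2 with the fusion, with medians of 0.00 and -0.07. CLK3 was at 83.4 and 68.6 CPM in EV and at 70.6 and 50.3 CPM with MXD3, a log2 fold change of -0.33 ± 0.30. The largest kinase level was that of SRPK1, at 199.6 to 246.1 CPM, among CLK2 (30.6 to 45.2), CLK3 (44.9 to 83.4), CLK4 (12.5 to 24.7) and SRPK2 (79.0 to 115.2). DYRK1A, which phosphorylates several splicing factors, differed by -0.16 ± 0.11 between the fusion and EV, and PRPF4B, a kinase of the assembling spliceosome, by -0.20 ± 0.18 between the fusion and MXD3. Of the SR-related speckle proteins, 32 of 33 were tested, CIR1 not being matched. Of the 32, 27 were negative for the fusion against EV (median -0.11) and 27 for the fusion against MXD3 (median -0.13). The median over all genes was 0.01 in both, and the share of all genes with a negative sign was not counted. The summed level of the list was 4864 CPM in the second fusion library. In the first it was 5604 CPM, within the 5549 to 6079 CPM of the EV and MXD3 libraries. ACIN1, an SR-related protein of the exon junction, was at 311.8 and 297.8 CPM in EV, 252.9 and 264.7 CPM with MXD3 and 266.8 and 234.6 CPM with the fusion, with log2 fold changes against EV of -0.24 ± 0.12 and -0.28 ± 0.12. SON, a scaffold of nuclear speckles, differed by -0.36 ± 0.19 between the fusion and MXD3, and its first MXD3 library, at 652.4 CPM, stood above the other 5, at 393.5 to 470.6 CPM.

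The 28 hnRNP proteins had medians of -0.03 with MXD3, -0.02 with the fusion and -0.03 between the fusion and MXD3. SYNCRIP, the hnRNP Q protein, was at 155.6 and 186.1 CPM in EV and at 218.5 and 211.4 CPM with MXD3, a log2 fold change of 0.33 ± 0.15. The 38 core spliceosome genes had medians of -0.06, 0.00 and 0.02 in the same order. SF3A2, a subunit of the U2 particle, was at 189.5 and 168.0 CPM in EV and 152.1 and 148.1 CPM with MXD3, a log2 fold change of -0.25 ± 0.12, and SF3B6 differed by 0.23 ± 0.11 between the fusion and MXD3. The 15 factors of nonsense-mediated decay, which removes the SR transcripts with premature stops, had medians of 0.03, -0.06 and -0.07. Among them CASC3 differed by -0.21 ± 0.13 with MXD3, UPF2 by -0.20 ± 0.17 with the fusion, and SMG6 by -0.25 ± 0.16 between the fusion and MXD3.

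**Figure D4:**
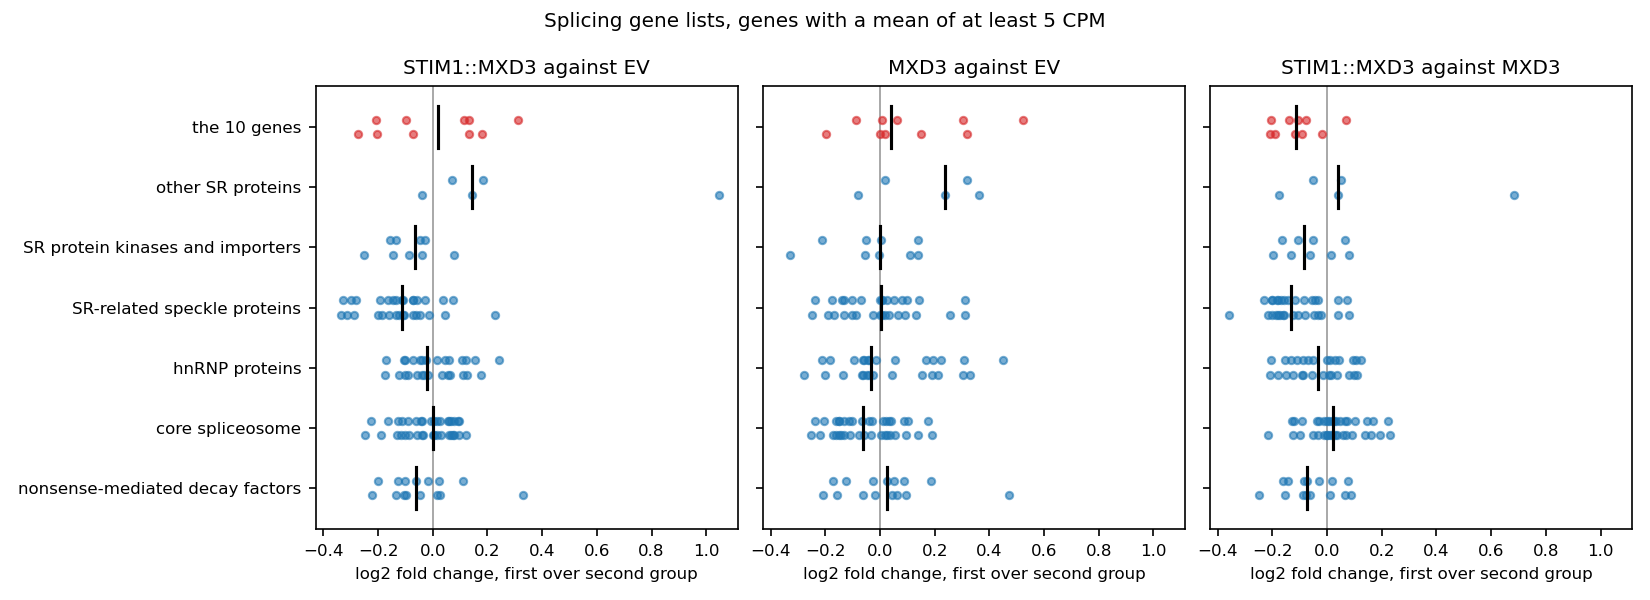
Log2 fold change (horizontal axes) of the 10 genes (red) and of the genes of the 6 other splicing lists (blue) in the 3 comparisons, for genes with a mean of at least 5 CPM. Black bars are medians over all tested genes of a list. The SR-related speckle proteins have medians of -0.11 and -0.13 in the 2 comparisons of the fusion, and the 10 genes have 0.02, 0.04 and -0.11 in panel order.

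Of 5 RNAs listed as held in the nucleus, 4 were tested and edgeR called 0 in any comparison, with 1 at an unadjusted p under 0.05 for the fusion against EV, 0 for MXD3 against EV and 2 for the fusion against MXD3. Where these RNAs lie in the cell was not measured. MALAT1, a noncoding RNA of the nuclear speckles where SR proteins gather, was at 215.5 and 148.9 CPM in EV, 267.4 and 178.3 CPM with MXD3 and 186.7 and 153.0 CPM with the fusion. Its library numbered 2 was lower in each group, with log2 differences of -0.53, -0.58 and -0.29 in EV, MXD3 and the fusion. The list did not move one way, since OIP5-AS1 had differences of 0.34, 0.14 and 0.31 and NEAT1 of -0.32, 0.22 and 0.18. In all libraries numbered 2, 1 of the 4 RNAs was above (OIP5-AS1) and 1 below (MALAT1). The count above thus rests on OIP5-AS1, whose place in this list was not checked. OIP5-AS1 and NEAT1 were named here after their values were seen. KCNQ1OT1, an antisense RNA inside the KCNQ1 gene whose reads cannot be told from those of KCNQ1 without strand, was at 24.6 and 27.3 CPM in EV and at 19.9 and 15.7 CPM with the fusion, a log2 fold change of -0.54 ± 0.20 (edgeR, adjusted p = 1.00). Both fusion libraries were below the other 4.

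The genes whose log2 CPM most resembled that of CLK1 over the 6 libraries were taken from 10126 genes with a mean of at least 5 CPM. They were USP11 (r = 0.998), ZFPM2 (r = 0.997), ZFP36L1 (r = 0.997), RAB3GAP1 (r = 0.997) and ZSWIM9 (r = 0.996). Genes like the mean of the 10 genes included EMSY (r = 0.984), IGF2BP1 (r = 0.968), QSER1 (r = 0.967) and ROGDI (r = 0.952). That mean, centred on 0 on the log2 scale, was 0.08 and 0.07 in the MXD3 libraries, -0.02 and -0.04 in EV and -0.04 and -0.06 in the fusion libraries. The 6 points of each correlation share their depth and scaling, and the highest of many values is high by selection, so these are descriptions of the 6 libraries.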

How the data were processed

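RNA sequencing of 6 K562 libraries was analysed, 2 each for EV, MXD3 and STIM1::MXD3, grouped by their labels. Each library had 1 deposited table of counts by NCBI Gene identifier, which the authors had not normalised. Reads came in pairs from poly A RNA with hg19 as the reference, and the submitters' processing notes name HISAT2 2.2.1 and featureCounts 2.0.1. The annotation, the use of strand and the counting of pairs are not given in the sources used here.

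Symbols were matched for 23696 (92.2%) of 25702 identifiers. Genes were kept with filterByExpr (15431 genes) and scaled with TMM. The 3 comparisons were tested, two-sided, with the quasi-likelihood test of edgeR 4.0.16 in R 4.3.3, with 1 fit over all libraries and no covariate, and Benjamini-Hochberg adjustment ran across every gene tested (threshold 0.05). Levels are TMM-scaled CPM, with a prior count of 2 for log2 values. Lengths and positions came from GENCODE v44 on GRCh37. The pipeline was tested on simulated counts.

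The members and lists were chosen with earlier results of these data known. Named genes were the 10 members, CLK2 to CLK4, SRPK1, SRPK2, SRSF9, SRSF10, TRA2A and TRA2B, MXD3 and STIM1, and in each list and comparison the genes past the threshold or, with none, the gene of smallest p at a mean of at least 5 CPM. The 5 genes most alike to CLK1 and to the mean of the members were also named, except 1 that is not reported here. Lists held other SR proteins, SR protein kinases and importers, SR-related speckle proteins, hnRNP proteins, core spliceosome genes, nonsense-mediated decay factors, nuclear RNAs, and K562 and other cell markers. The alternatives were DESeq2 1.42.0, a replicate block, other scalings and filters, halved counts, GC and length offsets, and single libraries left out.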

Additional observations from a re-analysis of the deposited data

How the results depend on the processing

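The labels do not say that a replicate number marks a shared day or batch, and there are only 2 pairs. When the group means were subtracted, libraries with the same number correlated over genes with a mean of at least 5 CPM, at r = 0.621 for EV and MXD3, 0.707 for EV and the fusion and 0.792 for MXD3 and the fusion. With the replicate block, edgeR called 45 genes for MXD3 against EV (1 without it), 3 for the fusion against EV (1) and 1 for the fusion against MXD3 (0). Of the 10 genes it called 1 for MXD3 against EV, SRSF1, where 45 of all 15431 genes tested were called. DESeq2 called 3, 3 and 1 genes over all genes in the same order, and with the replicate block 238, 19 and 5. Those 238, of all 15431 genes tested, held 3 of the 10 genes, SRSF1, SRSF2 and SRSF7. They also held 3 genes of the other lists, HNRNPH3, SYNCRIP and HNRNPA2B1. The 10 genes were chosen with these counts known, so their calls support nothing. GC and length offsets with the replicate block gave 38, 3 and 1 genes and 0 of the 10 genes, so SRSF1 was not called there (log2 fold change 0.51). Without the filter, 2 genes were called for the fusion against EV and 1 for the fusion against MXD3. Leaving out single libraries gave 1 to 2 genes for MXD3 against EV, with 2 without the second MXD3 library, 1 for the fusion against EV and 0 for the fusion against MXD3. It gave 0 of the 10 genes and 0 genes of the other lists in every comparison. The cause of these shifts was not tested.

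The median log2 fold change of the 10 genes for the fusion against MXD3 was -0.11. It was -0.13 with the replicate block, -0.13 in DESeq2 with the block, -0.15 by library size only, -0.12 with a mean of at least 5 CPM, -0.15 with GC and length offsets and -0.17 with offsets and the block. Leaving out single libraries gave -0.12 to -0.090 for the fusion against MXD3, 0.038 to 0.17 for MXD3 against EV and -0.028 to 0.13 for the fusion against EV. For the fusion against MXD3, library size only and the GC and length offsets moved the median further than leaving out any single library did. For the fusion against EV, where the median was 0.02, its sign turned with the replicate block (-0.0038), DESeq2 with the block (-0.012), GC and length offsets (-0.011) and offsets with the block (-0.054). The differences of SRSF2 and SRSF7 kept their sign in all 3 comparisons under every alternative and without any single library. This adds no support, since the genes were chosen with these counts known and every alternative refits the same counts. Some of these differences were no larger than their SE. For SRSF2 the fusion differed from EV by 0.11 ± 0.12, and for SRSF7 it differed from MXD3 by -0.14 ± 0.14.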
